A study of Mus musculus with 61 samples.

Results

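Sox2 binding in fibroblasts undergoing reprogramming was mapped with 2 hairpins against the same gene, Chaf1a, and the 2 deposited position lists were compared site by site. All 15888 positions of the Chaf1a.166 list and all 19319 positions of the Chaf1a.2122 list were pooled, and neighbours within 200 bp were joined. This gave 22469 sites, of which 12684 held positions of both hairpins (shared), 3187 held Chaf1a.166 only and 6598 held Chaf1a.2122 only. The 2 lists hold 35207 of the 52888 Sox2 positions in the series, and the other 17681 belong to the Renilla control list.

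The cells were mouse embryonic fibroblasts from E13.5 embryos of strain Black6-129X1/SvJ, genotype Col1a1::tetOP-OKSM ; R26-M2rtTA, in which doxycycline switches on the OKSM reprogramming factors, Sox2 among them. All groups, the Renilla control included, carried these alleles and were kept for 3 days in serum/LIF medium with doxycycline (2 ug/ml) and ascorbate. Each hairpin (Chaf1a.166, Chaf1a.2122, or Renilla, which targets a luciferase absent from mouse cells) gave 1 immunoprecipitate with a goat polyclonal antibody to Sox2 and 1 whole-cell input, so 6 ChIP-seq libraries were used of 61 samples, beside 1 pooled value per condition from 3 Sono-seq libraries each of CAF-1 knockdown and Renilla. With 1 pair of libraries per hairpin, no test between hairpins was possible. A difference between the lists cannot be told apart from a difference between library preparations. The knockdown of Chaf1a was not measured in these files, and the labelled cell type was not checked against expression markers, since no expression data were used. The immunoprecipitates also draw on all cells of a culture, so fewer cells with bound Sox2 and weaker binding per cell cannot be told apart.

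Sox2 is an HMG-box transcription factor that binds short SOX motifs and often sits beside Oct4 on a joined SOX and octamer element, as at the Fgf4 enhancer. Chaf1a encodes the large subunit of CAF-1, the chaperone complex that deposits histones H3 and H4 on newly replicated DNA. Using more than 1 hairpin against a gene is the usual guard against off-target effects, because a second hairpin seldom shares the unintended targets of the first.

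Start-site sequences are shown for genes with a call of both hairpins or of a single hairpin near the start. They are the 250 bases upstream of the start in RefSeq (GRCm38.p6), whereas the position lists are in mm9. The calls were not placed on these windows, and distances below are to the start site in the authors' region table. Genes with a single RefSeq start were chosen from the 3 best of each class within 250 bp of a start. Capitals mark the SOX core ACAAT or its complement ATTGT on either strand and, where present, the composite ATTGTNATGCAAAT, which joins the SOX core to the octamer ATGCAAAT.

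Nrarp, at chr2:25180508-25180757 (plus strand), encodes a feedback inhibitor of Notch signalling. Pipox, at chr11:77893873-77894122 (minus strand), encodes a peroxisomal oxidase. Both genes had positions of both hairpins, and both windows hold the composite.
Nrarp: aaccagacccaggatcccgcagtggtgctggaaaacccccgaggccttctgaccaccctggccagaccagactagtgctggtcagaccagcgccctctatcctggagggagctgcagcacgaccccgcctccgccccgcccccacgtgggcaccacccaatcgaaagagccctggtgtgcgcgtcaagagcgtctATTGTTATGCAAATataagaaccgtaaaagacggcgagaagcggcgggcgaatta
Pipox: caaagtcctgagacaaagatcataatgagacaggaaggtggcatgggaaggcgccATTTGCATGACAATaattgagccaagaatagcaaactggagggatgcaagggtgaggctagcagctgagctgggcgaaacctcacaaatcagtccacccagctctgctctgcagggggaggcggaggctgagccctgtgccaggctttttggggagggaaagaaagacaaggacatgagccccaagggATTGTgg

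Rps7, at chr12:28635954-28636203 (minus strand), encodes a protein of the small ribosomal subunit. Selk, listed in RefSeq as Selenok, at chr14:29968130-29968379 (plus strand), encodes selenoprotein K. Both were supported by Chaf1a.166 only, and Rps7 has no SOX core in its window.
Rps7: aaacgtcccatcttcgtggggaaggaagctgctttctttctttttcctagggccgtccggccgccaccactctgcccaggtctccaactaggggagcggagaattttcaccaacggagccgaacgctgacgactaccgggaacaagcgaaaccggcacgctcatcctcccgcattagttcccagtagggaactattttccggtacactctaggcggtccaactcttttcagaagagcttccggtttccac
Selk: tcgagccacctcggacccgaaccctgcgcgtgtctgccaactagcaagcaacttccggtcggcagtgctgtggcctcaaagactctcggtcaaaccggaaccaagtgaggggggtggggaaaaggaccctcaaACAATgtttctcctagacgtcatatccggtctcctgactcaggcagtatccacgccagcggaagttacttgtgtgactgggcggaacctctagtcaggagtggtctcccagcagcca

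A930018P22Rik, at chr2:104122519-104122768 (plus strand), has no SOX core in its window. Wbp11, at chr6:136828217-136828466 (minus strand), encodes a splicing factor and has 2 cores. Both were supported by Chaf1a.2122 only.
A930018P22Rik: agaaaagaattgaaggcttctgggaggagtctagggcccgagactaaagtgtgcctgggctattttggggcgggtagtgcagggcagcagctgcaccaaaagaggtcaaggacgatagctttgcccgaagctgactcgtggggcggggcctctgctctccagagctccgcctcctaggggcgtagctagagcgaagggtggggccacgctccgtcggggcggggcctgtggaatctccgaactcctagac
Wbp11: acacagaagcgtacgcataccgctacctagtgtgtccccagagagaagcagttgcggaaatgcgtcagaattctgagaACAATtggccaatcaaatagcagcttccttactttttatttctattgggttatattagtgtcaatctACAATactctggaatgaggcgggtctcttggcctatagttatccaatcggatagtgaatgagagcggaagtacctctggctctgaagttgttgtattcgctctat

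The calls at Nrarp lay 46 bp (Chaf1a.166), 54 bp (Chaf1a.2122) and 76 bp (Renilla) upstream of the start, ranking 4, 5 and 8 in their lists. At Pipox they lay 189, 180 and 195 bp upstream, ranking 52, 55 and 64. Both sites were thus near the top of all 3 lists, and the 3 calls of a site lay within 30 bp of each other. The Rps7 position of Chaf1a.166 (score 29.2, 28 bp upstream) had no Chaf1a.2122 position nearer than 68067 bp, while a Renilla position lay 10 bp from the start with a score of 29.8. At Selk the Chaf1a.166 position (26.7, 77 bp upstream) was alone, with the nearest Chaf1a.2122 and Renilla positions at 87691 and 17318 bp. The Chaf1a.2122 positions at A930018P22Rik (25.4, 243 bp) and Wbp11 (23.0, 67 bp) each had a Renilla position at the same start, at 401 and 100 bp with scores of 13.9 and 16.5. The nearest Chaf1a.166 positions were 23754 and 23659 bp away.

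The composite stood in 6 of the 32851 RefSeq start-site windows (0.0183%). Those of Nrarp and Pipox were 2 of these 6. It was searched for after these sequences had been seen, so its presence is a description. Of the 194 genes with positions of both hairpins within 250 bp of a start, 168 had a RefSeq sequence, with 219 windows. In this and the next sets every RefSeq start of a gene was counted, so windows can belong to starts without a call. The windows are upstream only, while calls were taken on either side of a start. The SOX core was in 89 of these windows (40.6%, 95% Clopper-Pearson interval 34.1 to 47.5) and the octamer in 15 (6.85%, 3.88 to 11). Over all RefSeq windows these shares were 27.7% and 1.60%. The composite was in 2 of the 219 windows (0.913%), those of Nrarp and Pipox, so the sequences shown above are not typical of this class. The 48 matched genes of 55 that Chaf1a.166 alone supported within 250 bp had the SOX core in 18 of 65 windows (27.7%, 17.3 to 40.2) and the octamer in none, which allows up to 5.52%. For Chaf1a.2122 only and for the table as a whole fewer than 80% of genes were matched (86 of 110 and 4080 of 5154), so these sets are void as a comparison. Their values were 27 of 105 windows (25.7%, 17.7 to 35.2) and 928 of 5203 (17.8%, 16.8 to 18.9) for the SOX core. The table's share lay below that of all RefSeq windows.

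Most calls of each hairpin were matched by the other. Shared sites were 56.5% (55.8 to 57.1) of the 22469 sites, and they took in 79.9% (79.3 to 80.6) of the Chaf1a.166 positions and 65.8% (65.2 to 66.5) of the Chaf1a.2122 positions. Intervals are exact Clopper-Pearson or, for counts, Poisson, and cover counting error only. The lists differ in length, and with the best 15888 positions of each list these shares were 74.0% and 74.1%. The single classes then held 4126 sites for Chaf1a.166 only and 4113 for Chaf1a.2122 only. Lists of equal length with nearly always 1 position per site must give near-equal shares and single classes, so this is no finding about the hairpins. Among shared sites 12636 had exactly 1 position per hairpin, and every single-hairpin site was 1 position. A missing position is one below the threshold of its list, and says nothing on whether Sox2 bound there, as the read depth of the libraries is unknown.

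Single-hairpin positions were low in their own lists. The score is the authors' value for a position, and agreement between lists was measured on its ranks within a list. Scores of different lists are also printed side by side, but they were not put on a common scale. Its median was 27.1 at shared and 17.2 at single sites in Chaf1a.166, and 25.9 and 15.0 in Chaf1a.2122. The lowest scores of the lists were 14.8 and 12.4. The authors' enrichment over input had medians of 9.01 and 5.71 in Chaf1a.166, and of 8.92 and 5.12 in Chaf1a.2122. Its lower bound was below 1 at 5.08% of shared and 16.1% of single Chaf1a.166 positions, and at 7.06% and 26.0% of Chaf1a.2122 positions.

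The lists parted only well below the top. The best 2000 positions of each list were all in shared sites, and the first single-hairpin position ranked 2452 in Chaf1a.166 and 2392 in Chaf1a.2122. Of the best 5000, 25 (Chaf1a.166) and 39 (Chaf1a.2122) were single. By score decile, the shared portion of Chaf1a.166 went from 100% in the best decile to 89.5% in the fifth and 47.5% (45.0 to 50.0) in the last. In Chaf1a.2122 it went from 100% to 72.5% and 25.4% (23.4 to 27.4). The step down was gradual in both lists, without a sharp break. A stricter match, being among the same number of best sites in the other list, held for 76 of the best 100 sites, 805 of 1000 and 7668 of about 10000.

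**Figure D1:**
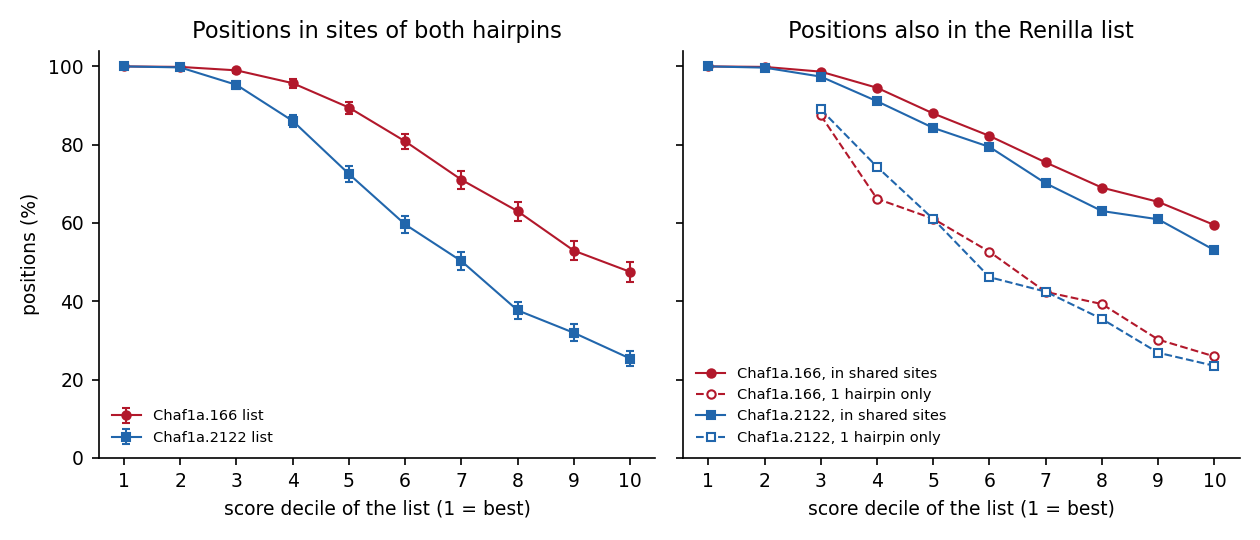
Left, share of positions of each hairpin that lie in shared sites, by score decile of the list, with 95% Clopper-Pearson intervals. Right, share of positions whose site also has a Renilla position, for shared sites (solid) and single-hairpin sites (dashed, deciles with at least 10 such sites). Shared portions fall from 100% in decile 1 to 47.5% (Chaf1a.166) and 25.4% (Chaf1a.2122) in decile 10, and in each decile shown the dashed points lie below the solid ones.

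The control list held many of the sites that the hairpins did not share. A Renilla position lay within 200 bp of 86.7% of shared sites, 37.3% (35.7 to 39.1) of Chaf1a.166 only sites and 37.8% (36.7 to 39.0) of Chaf1a.2122 only sites. The share rose with the score: Renilla held 71 of the 100 best-scored Chaf1a.166 only sites and 89 of the 100 best-scored Chaf1a.2122 only sites. Of the 5 best of each class it held 4 and 5. Within the last decile it held 25.9% of single and 59.5% of shared Chaf1a.166 positions, and 23.5% and 53.1% for Chaf1a.2122.

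The best Chaf1a.166 only site, on chromosome 6 at 114612798 (mm9), had a score of 46.9 and a Renilla position 22 bp away, with the nearest Chaf1a.2122 position at 2156 bp. The next, on chromosome 12 at 103090271, had a Chaf1a.2122 position 284 bp away, just past the joining distance. The best Chaf1a.2122 only site, on chromosome 1 at 179553701, scored 44.9 with a Renilla position 7 bp away and the nearest Chaf1a.166 position at 7018 bp. The best-scored single site with no Renilla position within 500 bp was, for Chaf1a.166, the one 2850 bp from Cenpm, a centromere protein gene (score 34.9, rank 4235). For Chaf1a.2122 it was on chromosome 15 at 78455184 (score 32.9, rank 4355), 178288 bp from the start of Card10. Few single sites were near misses of the joining distance: 100 of 3187 (3.14%) and 165 of 6598 (2.50%) had a position of the other hairpin within 500 bp. At the edge, 36 shared sites had offsets of 181 to 200 bp, and 10 and 13 single sites had the other hairpin beyond the limit but within 220 bp.

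Score ranks agreed at shared sites, most closely at the top. Across the 12684 sites Spearman's rho of the score was 0.77. The points share the genome, its mappability and the local input background, so this is a description of 2 lists. The first 3 sites had ranks 1, 2 and 3 in both lists. The first, at 44436601 on chromosome 10, had scores of 457 and 384 with the calls 6 bp apart, and lay 258108 bp from the start of Prdm1, a transcriptional repressor gene. The second, at 135294440 on chromosome 1, scored 391 and 358 with an offset of 8 bp, 263022 bp from Zbed6. The third, at 39478368 on chromosome 15, scored 381 and 343 with an offset of 1 bp, 448491 bp from Rims2. The site at the Nrarp start ranked 4 and 5.

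As a percentage of list length, the rank in Chaf1a.166 minus that in Chaf1a.2122 had a median of 3.13 points (quartiles -4.63 and 15.8). The Chaf1a.2122 list is longer and holds more low-ranked single positions, so a positive median need not mean stronger calls in it. The ranks lay within 10 points of each other at 48.8% of shared sites. That share was 91.6% among the best 3171 sites by mean rank and 28.4% among the worst 3171. A low mean of the same ranks leaves little room for a gap, so this contrast follows in part from the sorting. Ranks differed by more than 50 points at 405 sites (3.19%, 2.89 to 3.51). The widest gap in favour of Chaf1a.166 was on chromosome 1 at 35172676, with rank 3293 against 18952 and scores of 40.1 and 12.7. The widest in favour of Chaf1a.2122 was on chromosome 16 at 43192140, with rank 15779 against 2209 and scores of 14.9 and 46.8. A Renilla position lay 21 and 9 bp away, ranking 14259 and 7719 of 17681. Near Pkm2, a pyruvate kinase gene, a site 230 bp from the start had rank 4918 in Chaf1a.166 and 19082 in Chaf1a.2122, although its 2 calls were 25 bp apart.

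**Figure D2:**
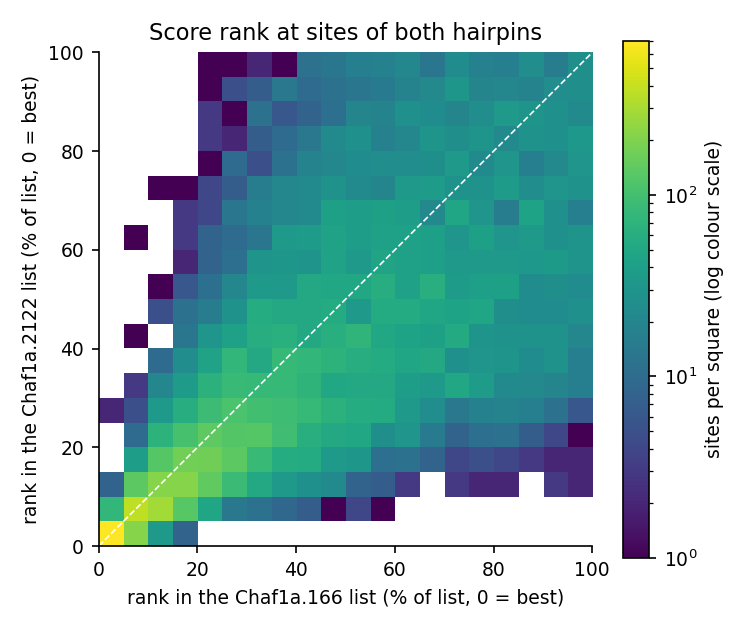
Score rank of the 12684 shared sites in the Chaf1a.166 list (x) and the Chaf1a.2122 list (y), each as a percentage of list length with 0 as best; colour gives the number of sites per square on a log scale, white squares hold none, and the dashed line marks equal rank. Sites gather on the diagonal at low values, with 707 sites in the best 5% of both lists, and spread widely at high values (rho 0.77).

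The enrichment ratio carried much less of this order. Its rho between the hairpins was 0.28 at the same sites, and 0.46 for its lower bound. Within a list, score and enrichment were themselves only loosely related (rho 0.46 in both lists). Agreement between the 2 Chaf1a hairpins was not set apart from their agreement with the control. In the 11004 sites of all 3 lists, rho of the score was 0.78 between the hairpins, 0.76 between Chaf1a.166 and Renilla, and 0.78 between Chaf1a.2122 and Renilla. These pairs share lists, and no difference among them was tested.

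The 2 calls of a site lay close together. In the 12636 shared sites with 1 position per hairpin the absolute offset had a median of 29 bp (quartiles 13 and 54), 72.7% were within 50 bp, and 115 sites had both calls on the same base. The joining distance caps the offset at 200 bp, and 94.7% were within 100 bp. There was no lean to either side, with a signed median of -1 bp (Chaf1a.2122 minus Chaf1a.166). The median offset was 16 bp in the best decile by Chaf1a.166 score and 41 bp in the last. Shared sites that Renilla also held had a median of 28 bp (n = 10947), and those it did not hold 38 bp (n = 1689). The median was 28 bp for the hairpin pair and 27 bp for each pairing with Renilla in sites that all 3 lists held.

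**Figure D3:**
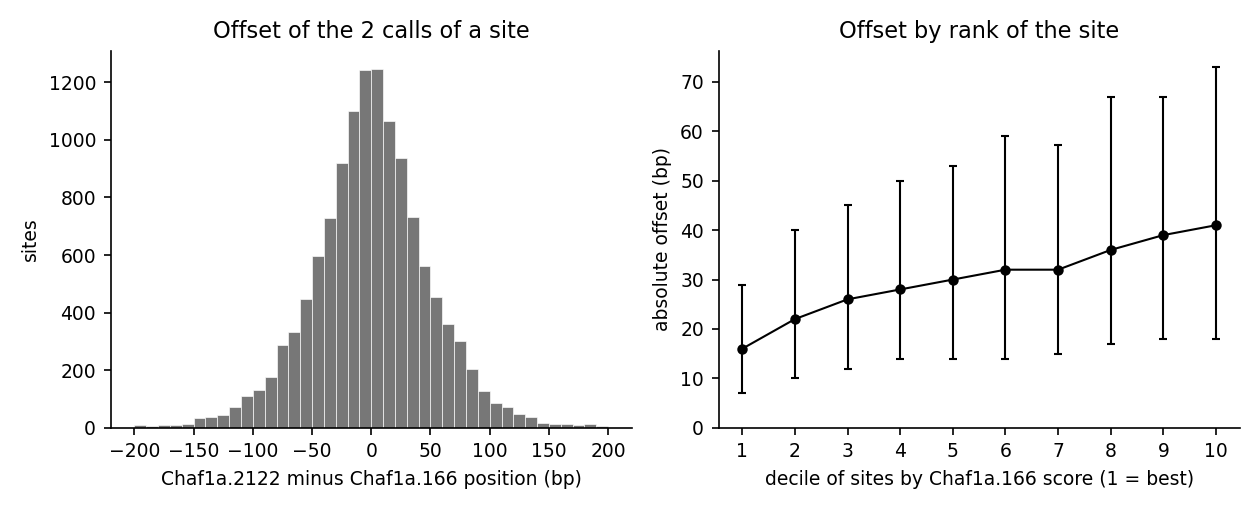
Left, number of shared sites with 1 position per hairpin by signed offset in 10 bp bins. Right, median absolute offset with quartiles (bars) by decile of sites on the Chaf1a.166 score. The distribution centres on 0 (signed median -1 bp), and the median grows from 16 bp in decile 1 to 41 bp in decile 10.

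Genes were taken from the authors' table of enhancers and promoters of mouse embryonic stem cells, which names 5154 genes with 5513 start sites. Chaf1a.166 had a position within 10 kb of 28.5% of these genes, Chaf1a.2122 of 33.4% and Renilla of 29.3%. Both hairpins supported 1227 genes (23.8%), Chaf1a.166 alone 240 (4.66%) and Chaf1a.2122 alone 493 (9.57%), so that exactly 1 hairpin supported 14.2%. When positions had to have a lower bound of the enrichment ratio of 2 or more, 112 of these 240 and 182 of these 493 genes kept their class. Cutting Chaf1a.2122 to the length of Chaf1a.166 brought these counts near each other, to 329 genes of Chaf1a.166 only and 308 of Chaf1a.2122 only. Renilla was near 87.4% of the genes of both hairpins, 36.3% of those of Chaf1a.166 only, 36.7% of those of Chaf1a.2122 only and 5.26% of those of neither. The best position of a single-hairpin gene had a median rank at 81.0% of the Chaf1a.166 list and 76.1% of the Chaf1a.2122 list. For genes of both hairpins the medians were 39.7% and 33.9%. Within 50 kb the other hairpin had a position for 140 of the 240 genes and 292 of the 493.

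The genes of both hairpins with the lowest mean rank began with Nrarp, Otud7b, a deubiquitinase gene, and Socs3, an inhibitor of cytokine signalling. At Otud7b the calls were 510 and 509 bp from the start, with scores of 225 and 237. At Socs3 the best calls were 6263 and 6231 bp away (229 and 220). The others were Ttc39b, Spc24 (a kinetochore subunit), Mtf2 (a Polycomb partner), Pipox, Adipor2 (an adiponectin receptor), Slc39a14 (a zinc transporter) and Eif2c1 (Argonaute 1). All 10 also had a Renilla position within 10 kb.

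The 10 best-scored Chaf1a.166 only genes had scores from 34.9 at Cenpm down to 25.8 at Mmp14, a membrane-bound matrix metalloprotease. The ribosomal protein genes Rps7 and Rpl22 came next after Cenpm, with calls 28 and 169 bp from the start. At Rpl22 (27.9) the nearest Chaf1a.2122 and Renilla positions were 32211 and 79590 bp away. Higd2a and Nop16 were supported by 1 and the same position. Mmp14 tied with its neighbours Slc7a7 and Mrpl52, which share its position. Pcnt (pericentrin of the centrosome), Selk, Znhit2 and Slc35e3 completed the set. Renilla had a position within 10 kb of 5 of the 10, namely Rps7, Higd2a, Nop16, Znhit2 and Slc35e3.

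All 10 of the best-scored Chaf1a.2122 only genes had a Renilla position within 10 kb. The first, Sos1, a Ras exchange factor gene, turned on the distance limit. Its Chaf1a.2122 position (39.9) lay 9900 bp from the start, and the Chaf1a.166 position lay at 10014 bp. Frs2, the adaptor of FGF receptors, had 2 Chaf1a.2122 positions, the best at 2239 bp (28.8), and a Renilla position at 2361 bp (32.0), while the nearest Chaf1a.166 position was 152463 bp away. Grlf1, a GTPase-activating protein, was alike, with scores of 26.5 (Chaf1a.2122) and 27.9 (Renilla) and no Chaf1a.166 position within 123320 bp. Scores in this set ran down to 25.5 at Trim41, and the others were BC031781, 1200014J11Rik, Coro1c, Dock1, Ubr2 and Rgs16. At the 10 kb limit from the other side, Homer3 was Chaf1a.166 only with a Chaf1a.2122 position at 10290 bp, and Camk1d counted for both with calls at 9925 and 9969 bp.

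Of the pluripotency network 37 genes were in the table. Both hairpins supported 13 (35.1%, against 23.8% of all genes), Chaf1a.166 alone 5 (13.5%, against 4.66%), Chaf1a.2122 alone 1 (2.70%, against 9.57%) and neither 18. Among the core regulators the best calls of both hairpins lay close together at Pou5f1 and Sox2 and farther apart at Nanog. At Pou5f1 (Oct4) the scores were 31.4 and 27.9 with an offset of 14 bp, and at Sox2 they were 35.3 and 33.4 with an offset of 13 bp. At Nanog each list had 2 positions within 10 kb, and the best calls of the hairpins were different places. These best calls lay 4941 and 4519 bp from the start and ranked 6128 and 10870, with 6468 in Renilla. The nearest Chaf1a.166 position lay at 4363 bp. Fgf4, a growth factor gene with a known Sox2 and Oct4 enhancer, had the best ranks of the list, at 202 and 153, with both calls 3016 bp from its start.

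The other shared pluripotency genes ranged from near-equal to widely different ranks. Klf2, a Kruppel-like factor, ranked 1316 and 1303 with the hairpins and 6264 in Renilla, and Gdf3, a TGF-beta family ligand, 1143 and 929. Upp1, uridine phosphorylase, ranked 2577 in Chaf1a.166 and 9248 in Chaf1a.2122, with 8493 in Renilla. Lin28b, a blocker of let-7 maturation, ranked 14852 in Chaf1a.166 against 5561 in Chaf1a.2122 and 6811 in Renilla, although its calls were 20 bp apart. Trim28, a corepressor gene, ranked 1086 and 2393, with 990 in Renilla.

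The 3 named pluripotency genes of Chaf1a.166 only were all in the lower part of its list of 15888. Sall4, a zinc-finger regulator, ranked 9568 (score 21.0, 5009 bp), and Jarid2, a Polycomb partner, 9926 (20.5, with a nearer second position at 2680 bp). Mycn ranked 15612 (15.0, 71 bp), close to the bottom. Klf4, a reprogramming factor gene, was the gene of Chaf1a.2122 only, at rank 11130 of 19319 (18.1, 6219 bp), and the nearest Chaf1a.166 position was 150180 bp away. Its call was lost within 5 kb and at a lower enrichment bound of 2, and that of Sall4 within 5 kb. Renilla had no position within 10 kb of any of these 4 genes. For Jarid2 the nearest Chaf1a.2122 position was 12253 bp away, and for Sall4 it was 104642 bp away.

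**Figure D4:**
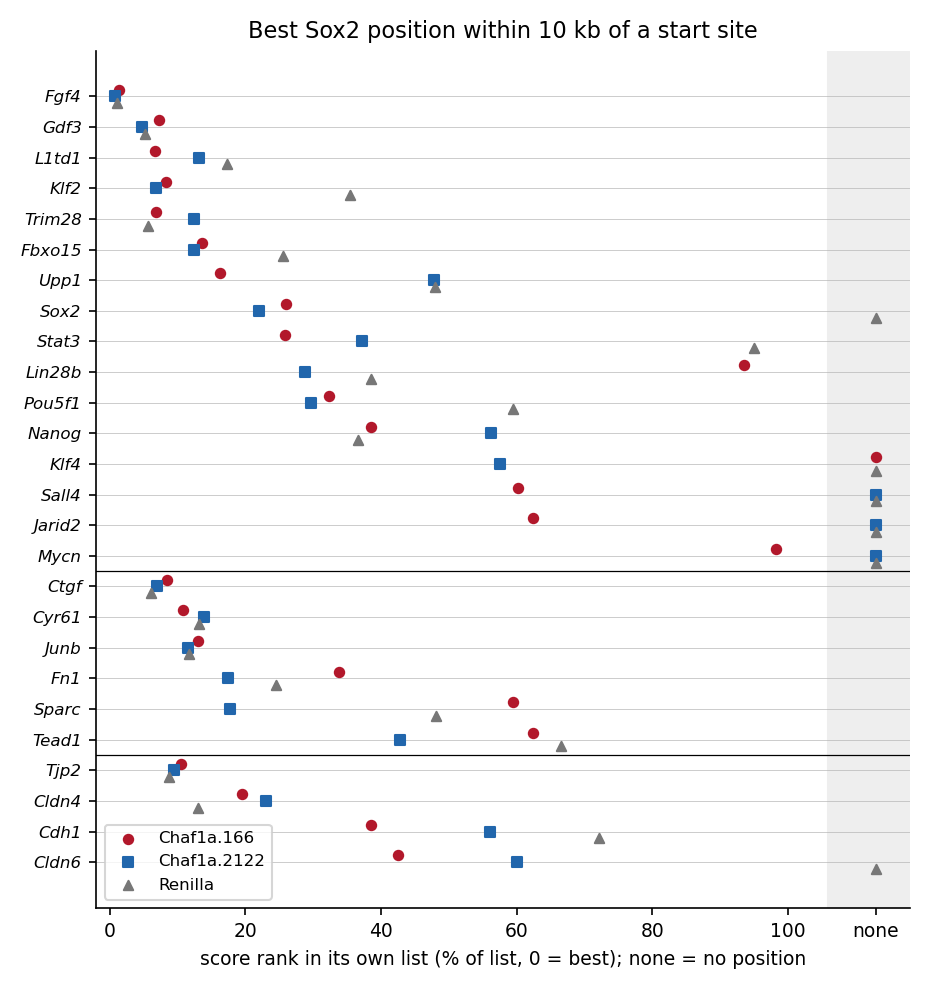
Score rank of the best position within 10 kb of a start site, as a percentage of its own list (0 = best), for 26 of the 29 pluripotency (top), fibroblast (middle) and epithelial (bottom) genes that at least 1 hairpin supported; "none" marks lists without such a position. Fgf4, at the top, has the 3 lists close together, Klf2 has both hairpins well ahead of Renilla, and the 4 single-hairpin genes at the foot of the top block rank from 57.6% (Klf4) to 98.3% (Mycn) in the list that holds them.

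No fibroblast or epithelial gene of the table depended on a single hairpin. Both hairpins supported 6 of 7 fibroblast genes and 4 of 8 epithelial genes, and the other members had neither. Over all genes the shares were 23.8% for both and 14.2% for a single hairpin, so on lists this short a count of 0 single genes sets nothing apart. The matricellular genes Ctgf and Cyr61 ranked 1345 and 1331, and 1718 and 2691. Fn1 (fibronectin) ranked 5380 in Chaf1a.166 and 3352 in Chaf1a.2122, and Sparc 9438 and 3433. The best Sparc calls were different places, 864 and 3943 bp from the start. Cdh1 (E-cadherin) had scores of 28.1 and 18.6 at calls 19 bp apart, and Cldn6, a claudin, 26.3 and 17.8. For other cell types of an embryo preparation the table held few markers: 1 of 3 blood genes (Cd68) and 1 of 4 endothelial genes (Tek) had both hairpins, none had a single one, and no muscle gene was listed.

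Of 12 histone chaperone genes both hairpins supported 6 and a single hairpin 4, beside 23.8% and 14.2% of all genes. Cabin1 (score 18.6, 894 bp), Daxx (17.0, 6437 bp) and Mcm2 (15.3, 8205 bp) were supported by Chaf1a.166 only, and Pcna, the sliding clamp that recruits CAF-1, by Chaf1a.2122 only (16.9, 9025 bp). All 4 scores were below the medians of their lists (23.7 and 20.0), and no Renilla position lay within 10 kb. Within 5 kb only Cabin1 kept its call, and at a lower enrichment bound of 2 only Daxx and Pcna did. Chaf1b, another CAF-1 subunit, had weak calls of both hairpins at 136 and 58 bp (14.9 and 13.1). Set, a histone-binding protein gene, ranked 1977 in Chaf1a.166 and 7524 in Chaf1a.2122.

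In the signalling lists the 5 single-hairpin genes all came from Chaf1a.2122, the longer list. The shares over all genes were 23.8% for both hairpins, 4.66% for Chaf1a.166 only and 9.57% for Chaf1a.2122 only. For Notch both hairpins supported 4 of 10 genes, among them Notch1, a receptor (ranks 438 and 455, 364 and 335 bp), and Jag1, a ligand (ranks 1336 and 3077). The coactivator gene Maml1 had Chaf1a.2122 only (21.9, 12 bp) and a Renilla position at 86 bp. For FGF both supported 6 of 10, and the receptor gene Fgfr1 had Chaf1a.2122 only (19.8, 5691 bp). For TGF-beta and BMP both supported 5 of 18, the inhibitors Smad6 and Smad7 and the targets Id1, Id2 and Id3, and no gene was single. For Wnt both supported 9 of 17, including the receptor genes Fzd2, Fzd5 and Fzd7. Tcf3 (16.0, 337 bp), Lgr4 (13.2, 4255 bp) and Sfrp1 (16.8, 763 bp) had Chaf1a.2122 only. The listed Tcf3 and Tcf4, on chromosomes 10 and 18, are E-protein genes and not the Wnt effectors Tcf7l1 and Tcf7l2, which are listed apart. The Wnt counts include them, Tcf3 as a single-hairpin gene and Tcf4 as a gene of both. The calls at Fgfr1, Lgr4 and Sfrp1 were lost at a lower enrichment bound of 2, that at Lgr4 also at equal list length, and that at Fgfr1 also within 5 kb. Among 21 cell cycle genes both supported 5, E2f1 (18.7) had Chaf1a.166 only, and E2f3 (18.8) and Bub1 (17.9) Chaf1a.2122 only, of which the last 2 were lost with that bound. Of the neural genes only Olig2 was in the table, with neither.

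Single-hairpin sites lay within 250 bp of start sites somewhat more often than shared sites did. A start site of the table was within 250 bp of 1.56% (1.35 to 1.79) of shared sites, 2.57% (2.05 to 3.18) of Chaf1a.166 only sites and 2.15% (1.82 to 2.53) of Chaf1a.2122 only sites. The intervals of the single classes do not reach that of the shared class. Within 10 kb the shares were 9.52% (9.02 to 10.0), 12.4% (11.3 to 13.6) and 10.4% (9.67 to 11.2), so Chaf1a.2122 only then overlapped the shared class. Within 100 kb they were 39.1%, 44.3% and 39.5%. The classes also differ in score, and sites were not matched on it. The listed enhancers did not show the order seen within 250 bp. One lay within 500 bp of 3.00% (2.71 to 3.32) of shared sites and 2.95% of Chaf1a.166 only sites. For Chaf1a.2122 only sites the share was 2.26% (1.91 to 2.65), and its interval lay below that of the shared class. The interval of Chaf1a.166 only took in the share of the shared class.

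Sono-seq reads DNA from sheared, fixed chromatin, where open regions are over-represented, and the table gives 1 value per region for CAF-1 knockdown and 1 for Renilla. At promoters with a position within 500 bp, the median values were 0.142 (CAF-1) and 0.143 (Renilla) for both hairpins (n = 284), 0.139 and 0.145 for Chaf1a.166 only (n = 124), and 0.142 and 0.145 for Chaf1a.2122 only (n = 230). The CAF-1 value was the higher at 48.9% of the promoters of both hairpins, 35.5% (27.1 to 44.6) of those of Chaf1a.166 only and 46.5% (39.9 to 53.2) of those of Chaf1a.2122 only. Of the 4875 promoters with neither it was the higher at 48.6% (47.2 to 50.0). At enhancers the shares were 50.9%, 55%, 49.3% and, for neither, 55.5%. The lowest of these shares was that of promoters of Chaf1a.166 only, whose interval lay below that of promoters with neither. The median difference of CAF-1 minus Renilla on the log2 scale was -0.08 there and -0.0070 in promoters with neither. The intervals count promoters and not replicates, so a difference between classes was not tested. With 1 value per condition there is no replicate check.

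The hairpin that held the single sites varied by chromosome. Chaf1a.166 held 32.6% of the 9785 single-hairpin sites. Its share was highest on chromosome 17 at 43.2% (38.0 to 48.4) and lowest on chromosome 15 at 25.5% (21.4 to 30.0). On 4 chromosomes (2, 12, 17 and 18) the interval lay above the share of all, and on 4 below. The number of Chaf1a.166 positions per Chaf1a.2122 position was 0.93 on chromosome 17, 0.75 on chromosome 15 and 0.82 over all. It rests on the same counts and so is bound to follow the share. Copy number and read depth by chromosome were not tested. The shared portion of sites varied less, from 52.8% on chromosome X to 59.2% on chromosome 2.

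**Figure D5:**
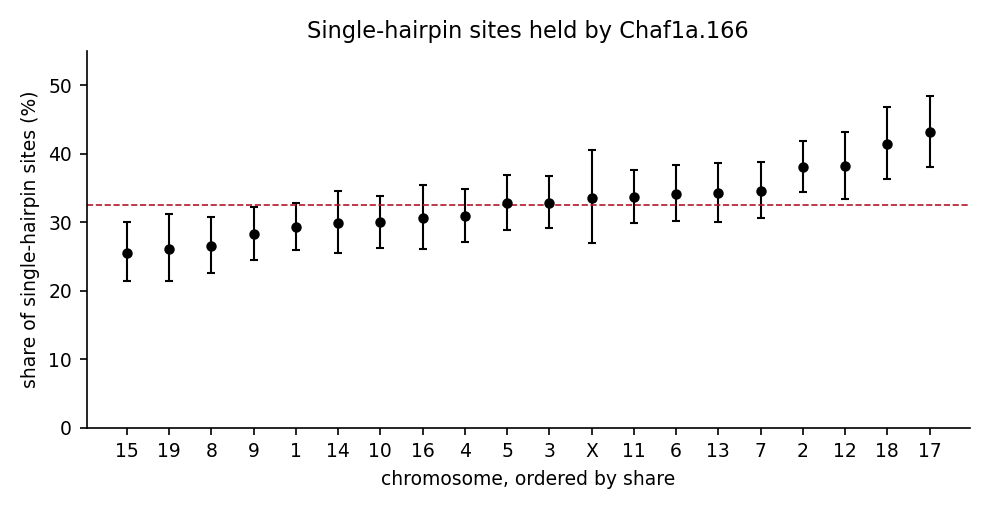
Share of single-hairpin sites held by Chaf1a.166 on each chromosome, ordered by share, with 95% Clopper-Pearson intervals; the dashed line is the share over all chromosomes (32.6%). Values run from 25.5% on chromosome 15 to 43.2% on chromosome 17.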

How the data were processed

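Sox2 ChIP-seq of day 3 was used from 1 immunoprecipitate and 1 input per hairpin. The submitters' processing notes name mm9 as the build and list BWA 0.7.8 and Bowtie, without saying which step each served. The program behind the position calls was not given in the sources used here. Each deposited position carries a score, a false discovery rate (a q-value, at most 0.000644 in the Chaf1a.166 list) and an enrichment ratio over input with its lower bound, per the file headers. The Sono-seq values are deposited per region as a score-like number of unstated unit. Positions were joined within 200 bp by chaining, a site took the best score of each list, and genes were counted within 10 kb of any listed start, with Python 3.11.15, pandas 2.3.3, NumPy 2.4.6 and SciPy 1.17.1. The steps were tested on simulated data. Spearman's rho is given across sites with no p-value.

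The members and gene lists were chosen with earlier results of these data known. Named genes were those of the pluripotency, fibroblast and epithelial lists with exactly 1 hairpin, the 10 best-scored genes of each single class, the 10 genes of both with the lowest mean rank, the nearest genes of the 5 leading sites of each class, and single-hairpin genes of the other lists where there were at most 5. Genes with both hairpins that are given as examples, the best single sites without a Renilla position and the composite motif were chosen after their values were seen. In the table, 136 rows whose symbol had been turned into a date were restored. Some genes are counted with their list but not reported by name here. Alternatives were other joining and start-site distances, lists of equal length, a minimum enrichment bound, other ranking measures and a wider distance for matching to Renilla.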

Additional observations from a re-analysis of the deposited data

How the results depend on the processing

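Shared sites were the largest class under every alternative run. The single classes became nearly equal in sites at equal list length, as the cut requires. An enrichment lower bound of at least 2 left 7091 shared sites and 3951 Chaf1a.2122 only sites, raised rho to 0.83, and gave shared portions of 66.9% (Chaf1a.166) and 64.3% (Chaf1a.2122), 90.2% and 91.2% in the best 5000 and 27.8% and 20.8% in the last decile. It also gave 743 genes of both hairpins and 324 of Chaf1a.2122 only, of which 142 had been genes of both. Of the named single-hairpin genes, Rpl22, Frs2, Ubr2, Wbp11, Cabin1, Mcm2, Klf4, Fgfr1, Lgr4, Sfrp1, E2f3 and Bub1 then had neither hairpin. Within 5 kb the best Socs3 calls of both hairpins were lost, and a separate Chaf1a.2122 position 57 bp from the start made it Chaf1a.2122 only. Spc24 then had neither. Of the best-scored single-hairpin genes, Higd2a, Nop16, Znhit2, Slc35e3, Mmp14, Sos1, Coro1c, Grlf1 and Trim41 also had neither hairpin within 5 kb. At equal list length Chaf1a.2122 only held 4113 sites and 308 genes, against 4126 and 329 for Chaf1a.166 only. The shared portions were then 74.0% and 74.1%, 36.6% and 35.7% in the last decile, and 99.04% in the best 5000 of Chaf1a.166, and Renilla held 35.2% and 40.6% of the single sites. Spearman's correlation was 0.28 with the enrichment ratio and 0.46 with its lower bound in place of the score. The median offset was 27 bp with joining at 100 bp and 21 bp in the best 5000 positions of both lists. Genes of both hairpins numbered 532 within 2 kb and 3106 within 50 kb. A Renilla position within 500 bp was found for 39.7% of Chaf1a.2122 only sites. A false discovery rate of at most 0.001 removed nothing. No paired analysis was possible because each hairpin has 1 immunoprecipitate and 1 input and the result comes from no test. At equal length 89 of the 1227 genes of both hairpins became Chaf1a.166 only and 185 of the 493 genes of Chaf1a.2122 only had neither hairpin. The read depth is unknown and limits what a missing position can show.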
